A study of Mus musculus with 30 samples.

Results

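Uteri of wild-type (WT) mice taken 2 h after insulin-like growth factor 1 (IGF1) were set against uteri of WT mice given saline vehicle. By their titles, 6 of the 30 arrays of the series belong to these groups, 3 to each. The whole series crosses genotype, agent and time in 10 groups of prepubertal female mice aged 21 days. The WT IGF1 2 h group had received 50 µg of IGF1 in PBS by intraperitoneal injection. The WT vehicle group had received 100 µl of saline by the same route and was taken at 24 h, so agent and time since injection cannot be told apart between the groups. Some results are set beside WT uteri taken 2 h after 250 ng of estradiol (E2) and WT uteri taken at 24 h after 3 injections of 50 µg of IGF1, the last of them at 16 h. Others are set beside uteri of mice that lack estrogen receptor alpha (KO, labelled Ex3aERKO), taken 2 h after IGF1, 2 h after E2 or 24 h after vehicle. Whether the 3 replicates of a group came from separate animals is not stated in the labels, so p-values measure the spread between these samples, which may be technical.

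IGF1 is the peptide hormone through which much of the growth-promoting action of growth hormone, and in the uterus of estradiol, is known to run. It binds a receptor tyrosine kinase, the IGF1 receptor, which works through insulin receptor substrate (IRS) adaptors. From there the signal runs along the MAP kinase cascade, which switches on immediate early genes, and along PI3-kinase and AKT, which keep FoxO transcription factors out of the nucleus and activate mTORC1, the kinase complex that drives protein, nucleotide and lipid synthesis.

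Values below are log2 intensities per gene, and a difference of 1 is a doubling of signal. A gene is said to have risen or fallen where limma gave an adjusted p under 0.05 over all 30142 genes tested. The floor of each array, the level below which a signal was read as background, lay between 5.84 and 6.48 on the 6 arrays. Where a group lay at the floor on all its arrays, the difference is given only as at least a stated fold. The exception is the fitted genotype difference of Slc7a15, which is marked as not measured where it is given. Array medians ran between 6.17 and 6.47 over the 30 arrays.

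Some arrays stood apart. WT vehicle replicate 1 had the lowest mean correlation with its own group of all arrays (0.9745, against a highest value of 0.9944) and the highest floor of the 6. Xist, the RNA of the inactive X chromosome, was at 10.16 on that array, against 18.12 and 18.09 on the other vehicle arrays, while the Y-linked Eif2s3y, Uty and Kdm5d were at the floor on all 6 arrays. WT IGF1 replicate 2 had higher markers of fat cells and neutrophils: the fat-cell hormone Retn was at 14.41 there, against 9.28 and 8.72 on the other IGF1 arrays, and the neutrophil calprotectin gene S100a8 was at 14.26, against 8.49 and 8.28. KO IGF1 replicate 3 had levels near the KO vehicle arrays for many genes that IGF1 moved in the other arrays, as given below. List counts that moved by over 1.5 times without one of these arrays are given both ways, or through the named genes that lost their call, which follow the cell type markers.

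At 2 h, 2875 genes were higher and 2303 lower in IGF1 than in vehicle uteri, which is 9.54% and 7.64% of all genes tested. At 2-fold or more, 979 genes (3.25%) were higher and 570 (1.89%) were lower. The median difference over all genes was -0.08, and every list of genes below is to be read against these shares. In whole tissue, fewer cells of a type and less RNA per cell cannot be told apart. The plot of genes by array shows the 15 largest rises and the 15 largest falls. The rises included the immediate early genes Egr1 and Nr4a1, the MAP kinase feedback genes Spry4 and Dusp6 and the fatty acid synthesis genes Fasn and Thrsp, and 5 of the 15 falls were of the FoxO list.

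**Figure D1:**
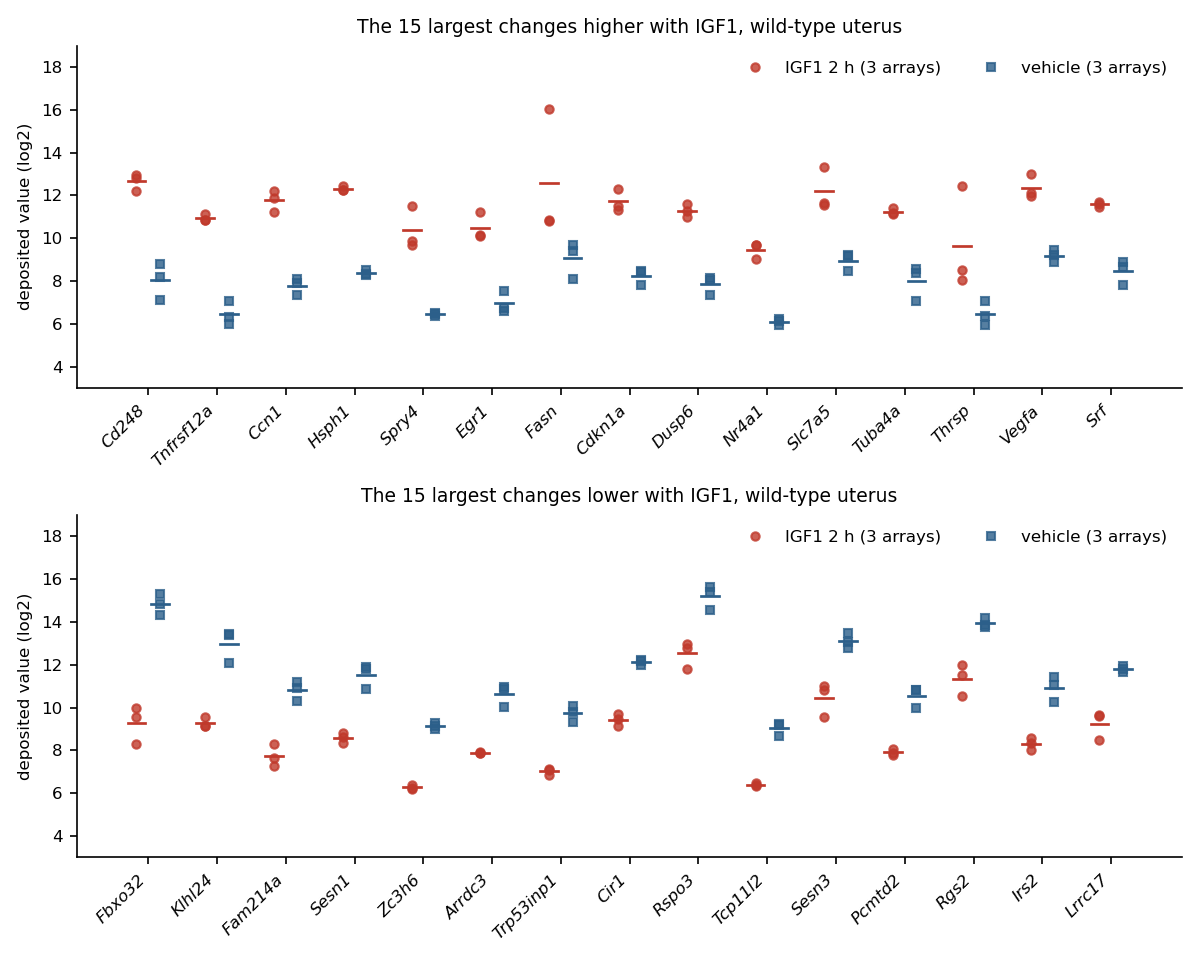
Log2 intensity of the 15 genes with the largest rises and the 15 with the largest falls, each point 1 array and each line a group mean, with WT IGF1 2 h left of WT vehicle. Groups did not overlap for any gene shown, since the rule that chose them required it, and Fasn and Thrsp show IGF1 replicate 2 far above the other IGF1 arrays.

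The largest rise was that of Cd248, which encodes endosialin, a surface glycoprotein of pericytes and fibroblasts. Cd248 was at 12.97, 12.20 and 12.79 in IGF1 uteri, against 7.11, 8.19 and 8.79 in vehicle uteri, a difference of 4.62 ± 0.54 (SE, n = 3 each, adjusted p = 5.82e-06, 24.6-fold). Tnfrsf12a, the receptor of the cytokine TWEAK, was at 10.83, 11.15 and 10.83 in IGF1 uteri, against 7.08, 6.33 and 5.98 in vehicle uteri (4.48 ± 0.57, adjusted p = 1.4e-05, 22.2-fold). In both genes every IGF1 array lay more than 3 log2 units above every vehicle array. The largest fall was that of Fbxo32, the muscle-wasting ubiquitin ligase atrogin-1 and a FoxO target. Fbxo32 was at 9.58, 8.29 and 10 in IGF1 uteri, against 14.34, 14.84 and 15.31 in vehicle uteri (-5.54 ± 0.81, adjusted p = 4.51e-05), so that the IGF1 arrays were 46.6-fold lower.

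The receptor pathway itself moved in both directions. Of 14 genes for IGF and insulin ligands, receptors and adaptors, 3 rose and 4 fell, with a median of -0.14. Irs2, an adaptor that couples the receptor to PI3-kinase, was at 8.58, 8.36 and 8.01 in IGF1 uteri, against 11.42, 10.24 and 11.04 in vehicle uteri (-2.58 ± 0.51, adjusted p = 0.000854, 5.98-fold lower). The adaptors Gab1 (-1.64 ± 0.31) and Grb14 (-0.81 ± 0.21), the second a binder and inhibitor of the insulin receptor, also fell. Grb10, which in turn restrains IGF1 receptor signalling, rose: it was at 9.95, 10.28 and 10.23 in IGF1 uteri, against 8.36, 9.23 and 9.09 in vehicle uteri (1.26 ± 0.18, adjusted p = 3.44e-05). Adaptors thus changed, while Igf1 and Igf1r did not pass the test, and the insulin receptor genes Insr and Insrr were not among the genes tested. Igf1 was at 10.50, 9.62 and 10.44 in IGF1 uteri, against 10, 10.53 and 10.69 in vehicle uteri (-0.22 ± 0.28, adjusted p = 0.647), and the groups overlapped. Igf1r was at 10.72, 10.83 and 10.66 in IGF1 uteri, against 10.99, 11.88 and 11.79 in vehicle uteri (-0.82 ± 0.33, adjusted p = 0.098), and its groups did not overlap. Without vehicle replicate 1, 2 genes of this list rose and 5 fell. Of 11 genes for IGF-binding proteins and their proteases, which hold IGF1 in the extracellular fluid or free it, none passed the test (median -0.05).

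Among 32 genes of PI3-kinase, AKT and mTOR, 12 rose and 8 fell, with a median of 0.07. Brakes of the pathway were found on both sides. Pik3ip1, a membrane inhibitor of PI3-kinase, was at 6.36, 6.37 and 6.32 in IGF1 uteri, against 7.88, 7.84 and 8.11 in vehicle uteri (-1.6 ± 0.21, adjusted p = 1.67e-05). Ddit4l, an mTORC1 inhibitor, differed by -2.08 ± 0.36, Deptor, an mTOR-binding inhibitor, by -0.99, and the sestrins Sesn1 and Sesn3, which hold mTORC1 back when amino acids are short, by -2.93 ± 0.52 and -2.64 ± 0.44. The mTORC1 inhibitors Ddit4 and Sesn2 are relatives of Ddit4l and of the other sestrins. Ddit4 rose (1.04 ± 0.31), and Sesn2, at the floor in vehicle uteri, was at least 1.35-fold higher. Rheb, the GTPase that activates mTORC1, rose by 1.04 ± 0.2, and Pdpk1, the kinase that activates AKT, by 0.94 ± 0.15. The number of rises in this list was 8 without vehicle replicate 1 and 7 without IGF1 replicate 2.

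FoxO factors drive genes of atrophy, growth arrest, stress resistance and autophagy. Of 34 FoxO genes and known targets, 15 fell and 1 rose, with a median of -0.7. The falls numbered 18 without vehicle replicate 1 and 16 without IGF1 replicate 2. After Fbxo32 the largest were in Klhl24, Sesn1, Sesn3 and Irs2, and the plot of genes by array shows each of them. Klhl24, a substrate adaptor of a ubiquitin ligase, was the second largest fall of all genes by the rule, at 9.13, 9.54 and 9.12 in IGF1 uteri, against 12.09, 13.42 and 13.40 in vehicle uteri (-3.71 ± 0.63, adjusted p = 0.000197, 13.1-fold lower). Sesn1 was at 8.83, 8.35 and 8.62 in IGF1 uteri, against 10.88, 11.80 and 11.90 in vehicle uteri. Outside the list, Arrdc3, an arrestin-domain protein that sends membrane receptors to degradation, was at 7.91, 7.86 and 7.86 in IGF1 uteri, against 10.03, 10.98 and 10.88 in vehicle uteri (-2.75 ± 0.5, adjusted p = 0.000408). The IGF1 arrays of Arrdc3 lay close together, well below all vehicle arrays.

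Growth-arrest and cell-death members fell as well. Mxi1, a Max partner that opposes Myc, was at 7.23, 7.28 and 7.38 in IGF1 uteri, against 9.41, 9.72 and 9.64 in vehicle uteri (-2.29 ± 0.31, adjusted p = 2.26e-05, 4.9-fold lower). Cdkn1b, the cyclin-dependent kinase inhibitor p27, was at 9.39, 9.64 and 9.59 in IGF1 uteri, against 10.51, 10.86 and 11.26 in vehicle uteri (-1.34 ± 0.31, adjusted p = 0.00357). Bcl2l11, the pro-apoptotic BIM, was at 7.81, 7.36 and 7.89 in IGF1 uteri, against 8.44, 8.68 and 9.04 in vehicle uteri (-1.03 ± 0.24, adjusted p = 0.00368). In these genes the groups did not overlap. Ccng2, a cyclin of resting cells (-1.63 ± 0.26), and the autophagy genes Gabarapl1 (-2.05 ± 0.43), Atg14 (-1.36) and Bnip3l (-1.05) fell too. Of the factors themselves Foxo4 fell (-0.81), while Foxo1 (-0.31, adjusted p = 0.242) and Foxo3 (-0.82, adjusted p = 0.0717) did not pass the test. Bcl6, a transcriptional repressor, was the member that rose (1.08), with overlapping groups. Pdk4, a brake on pyruvate oxidation, was at 6.58, 9.96 and 5.92 in IGF1 uteri, against 8.97, 9.13 and 9.46 in vehicle uteri, with IGF1 replicate 2 above and the other IGF1 arrays below all vehicle arrays (adjusted p = 0.102).

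Promoters of these genes were searched for the FoxO site GTAAACA on both strands, over the 250 bases before and 50 after each start in the RefSeq promoter table (GRCm38.p6). It was in 9.2% of 402 promoters of genes at least 2-fold lower (37 promoters), in 1.5% of 667 promoters of genes at least 2-fold higher (10 promoters) and in 3.54% of all 17970 promoters searched. Over all falls of any size the share was 5.33%. In the FoxO list 5 of 28 promoters held it (17.9%). A match is a description of the letters and not a site of binding. Sites of different motifs overlapped in at most 2.19% of sites of a motif. The 250 bases before a start of Mxi1 (chr19:53329445-53329694, plus strand) and of Bcl2l11 (chr2:128125788-128126037, plus strand) are shown as genes of this group that fell and hold the site. It stands in capitals at -231 and -227 from those starts. Both genes have other listed starts whose promoters lack the site, and a gene was counted above where any of its promoters held it. All promoters printed here were chosen after their genes' values and motif matches were seen.
Mxi1: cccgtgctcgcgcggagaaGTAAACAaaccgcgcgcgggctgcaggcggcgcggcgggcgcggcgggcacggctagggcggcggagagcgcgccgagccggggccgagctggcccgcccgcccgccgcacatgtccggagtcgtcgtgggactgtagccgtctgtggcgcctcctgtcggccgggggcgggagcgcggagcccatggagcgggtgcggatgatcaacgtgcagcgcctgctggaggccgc
Bcl2l11: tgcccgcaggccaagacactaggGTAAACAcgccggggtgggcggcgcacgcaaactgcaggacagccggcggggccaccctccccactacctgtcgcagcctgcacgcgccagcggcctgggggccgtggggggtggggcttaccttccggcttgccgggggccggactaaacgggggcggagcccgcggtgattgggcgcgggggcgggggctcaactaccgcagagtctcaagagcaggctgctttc

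The other large falls lay outside the FoxO list. Rgs2, which shortens signalling through G proteins, was at 11.51, 10.52 and 11.97 in IGF1 uteri, against 13.75, 14.19 and 13.87 in vehicle uteri (-2.61 ± 0.48, adjusted p = 0.000393, 6.09-fold lower). Trp53inp1, a stress-induced gene of p53 and autophagy, was at 7.14, 6.85 and 7.10 in IGF1 uteri, against 9.31, 9.79 and 10.08 in vehicle uteri (-2.7 ± 0.52, adjusted p = 0.000685). Zc3h6, a zinc-finger gene, was at 6.25, 6.37 and 6.21 in IGF1 uteri, against 9, 9.28 and 9.13 in vehicle uteri (-2.86 ± 0.27, adjusted p = 6.41e-07, 7.26-fold lower). In all of them every IGF1 array lay below every vehicle array, which the rule that chose them required. Fam214a (-3.05 ± 0.39), Cir1 (-2.7 ± 0.45), Tcp11l2 (-2.66 ± 0.48), Pcmtd2 (-2.63 ± 0.4) and Lrrc17 (-2.56 ± 0.45) complete the falls, and Tuba4a, a tubulin gene (3.22 ± 0.57), was the rise outside every list.

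Immediate early genes, transcription factor genes that MAP kinase signalling switches on without new protein synthesis, were mostly higher. Of 27, 19 rose, 8 did not pass the test and none fell, with a median of 1.07. Egr1, a zinc-finger factor, was at 10.17, 11.22 and 10.10 in IGF1 uteri, against 6.59, 6.76 and 7.52 in vehicle uteri (3.54 ± 0.57, adjusted p = 0.000109, 11.6-fold). Nr4a1, an orphan nuclear receptor, was at 9.04, 9.68 and 9.66 in IGF1 uteri, against 6.15, 6.21 and 5.95 in vehicle uteri (3.36 ± 0.28, adjusted p = 1.35e-07, 10.2-fold). Myc, a driver of growth genes, was at 11.21, 11.66 and 11.09 in IGF1 uteri, against 10.31, 9.66 and 9.55 in vehicle uteri (1.48 ± 0.27, adjusted p = 0.000349). Smaller rises were those of Ier2 (2.17), Klf4 (1.66), Egr2 (1.65), Klf10 (1.65), Fosl2 (1.62) and Atf3 (1.47). Among the classical AP-1 genes, Fos was at 6.72, 6.37 and 6.18 in IGF1 uteri, against 5.27, 4.95 and 5.45 in vehicle uteri, all vehicle arrays at the floor, and was at least 1.25-fold higher. Jun differed by 0.3 (adjusted p = 0.541), and Fosb and Egr4 did not pass the test.

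MAP kinase signalling also switches on its own inhibitors. Of 20 such feedback genes 10 rose and none fell (median 0.45). Spry4, an inhibitor of receptor-to-RAS signalling, was at 9.86, 11.52 and 9.70 in IGF1 uteri, against 6.50, 6.47 and 6.37 in vehicle uteri (3.91 ± 0.65, adjusted p = 0.000161, 15-fold). Dusp6, a phosphatase of ERK, was at 10.98, 11.61 and 11.29 in IGF1 uteri, against 7.35, 8.15 and 8.05 in vehicle uteri (3.44 ± 0.39, adjusted p = 4.78e-06, 10.9-fold). The other rises included Errfi1, an inhibitor of the EGF receptor (1.99 ± 0.33), the phosphatases Dusp7 (1.95) and Dusp1 (1.42), and Spred1 (1.2). Spry2, a close relative of Spry4, differed by -0.02 (adjusted p = 0.979), and Etv4 and Etv5, factors often used as readouts of ERK, did not pass the test.

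Serum response factor, encoded by Srf, switches on both immediate early and actin genes through the CArG box. Srf was at 11.60, 11.47 and 11.67 in IGF1 uteri, against 7.82, 8.90 and 8.64 in vehicle uteri (3.13 ± 0.28, adjusted p = 3.88e-07, 8.74-fold). Of 18 actin cytoskeleton genes linked to it 5 rose and none fell (median 0.62). Vcl, which encodes the adhesion protein vinculin, was at 14.00, 13.27 and 14.08 in IGF1 uteri, against 11.25, 12.35 and 12.11 in vehicle uteri (1.88 ± 0.37, adjusted p = 0.000731). The others were the actin-disassembly gene Wdr1 (1.95), the focal adhesion genes Zyx (1.26) and Tln1 (0.84), and the tropomyosin Tpm4 (1.26). Acta2, smooth muscle actin, differed by 0.02, with overlapping groups. Des, which encodes the muscle intermediate filament desmin, was at 13.20, 13.26 and 12.85 in IGF1 uteri, against 9.47, 10.64 and 10.91 in vehicle uteri (2.76 ± 0.46, adjusted p = 0.000159), while most other myometrium markers did not pass the test.

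A CArG box was in 2.55% of promoters of genes at least 2-fold higher, 2.49% of those at least 2-fold lower and 1.7% of all. The promoters of Srf (chr17:46556163-46556412, minus strand) and Vcl (chr14:20929148-20929397, plus strand) are printed as members that rose and hold it, in capitals at -82 and -62 in Srf and at -227 in Vcl.
Srf: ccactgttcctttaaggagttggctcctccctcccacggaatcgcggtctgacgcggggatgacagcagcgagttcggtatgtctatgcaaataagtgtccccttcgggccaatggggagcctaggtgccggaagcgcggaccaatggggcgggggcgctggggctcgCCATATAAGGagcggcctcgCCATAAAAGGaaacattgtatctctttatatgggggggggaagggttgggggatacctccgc
Vcl: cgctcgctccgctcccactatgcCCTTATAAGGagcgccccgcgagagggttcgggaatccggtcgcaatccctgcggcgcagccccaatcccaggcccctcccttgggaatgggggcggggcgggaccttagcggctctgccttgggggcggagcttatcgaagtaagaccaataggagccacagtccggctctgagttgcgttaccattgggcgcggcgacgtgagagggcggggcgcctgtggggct

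Ribosome biogenesis, the making of ribosomal RNA and its assembly in the nucleolus, was the list with the most rises: 38 of 42 genes rose and none fell (median 1.09). The count was 35 without vehicle replicate 1 and 34 without IGF1 replicate 2. Ddx21, a nucleolar RNA helicase, was at 12.32, 12.43 and 12.15 in IGF1 uteri, against 9.19, 9.22 and 9.21 in vehicle uteri (3.09 ± 0.42, adjusted p = 2.3e-05, 8.53-fold). Rrn3, the factor that lets RNA polymerase I start, was at 11.06, 11.06 and 11.11 in IGF1 uteri, against 9.32, 9.88 and 9.72 in vehicle uteri (1.44 ± 0.21, adjusted p = 4.36e-05, 2.71-fold). Ubtf, which opens ribosomal DNA, was at 11.13, 10.89 and 11.10 in IGF1 uteri, against 9.46, 9.25 and 9.31 in vehicle uteri (1.7 ± 0.22). Each of these had narrow groups far apart. Small-subunit processing genes rose by similar amounts, Ltv1 by 2.62, Heatr1 by 2.43, Utp4 by 2.32 and Mphosph10 by 2.18, as did the snoRNP genes Nop58 (1.95) and Fbl (1.36) and the polymerase I subunits Polr1a (0.96) and Polr1b (0.69). The members that did not pass the test were Ncl (0.57), Pes1 (0.55), Ddx56 (0.34) and Npm1 (-0.03).

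The genes for the ribosomal proteins themselves did not follow: of 16, Rpl11 rose (0.35) and the others did not pass the test (median 0.08). Of 19 translation factors 13 rose and 1 fell (median 0.92). Eif4e, the cap-binding protein that limits initiation, was at 12.26, 12.38 and 12.49 in IGF1 uteri, against 10.73, 10.67 and 10.55 in vehicle uteri (1.73 ± 0.25, adjusted p = 4.61e-05). The helicase Eif4a1 rose by 1.8 and Eef1e1 by 2.29, Eef1a1 differed by 0.04, and Eef2k, the kinase that stops elongation, fell by 0.47. In the Myc and Max network of 12 genes, 3 rose and 3 fell: Myc and Mlx (1.59) were among the rises, and the Myc opponents Mxi1 and Mxd4 (-1.27) and the relative Mycn (-0.4) were the falls.

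The E-box CACGTG, the site of Myc with Max, was in 17.7% of the promoters of genes at least 2-fold higher (118 promoters), 10.2% of those at least 2-fold lower and 8.95% of all. Over rises of any size it was in 13.6%, and in the ribosome biogenesis list in 11 of 37 promoters (29.7%). Many other factors are known to bind the same letters. The promoter of Rrn3 (chr16:13780449-13780698, plus strand) holds it at -215 and -48, and that of Hsph1, a chaperone gene described below (chr5:149636316-149636565, minus strand), at -19. They are shown as strong rises with the commonest motif of the rises, and the E-box is in capitals.
Rrn3: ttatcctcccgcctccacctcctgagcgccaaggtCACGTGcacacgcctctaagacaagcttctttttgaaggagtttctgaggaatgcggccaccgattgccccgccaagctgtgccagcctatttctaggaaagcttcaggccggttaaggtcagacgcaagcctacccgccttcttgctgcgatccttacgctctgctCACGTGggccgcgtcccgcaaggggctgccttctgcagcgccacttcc
Hsph1: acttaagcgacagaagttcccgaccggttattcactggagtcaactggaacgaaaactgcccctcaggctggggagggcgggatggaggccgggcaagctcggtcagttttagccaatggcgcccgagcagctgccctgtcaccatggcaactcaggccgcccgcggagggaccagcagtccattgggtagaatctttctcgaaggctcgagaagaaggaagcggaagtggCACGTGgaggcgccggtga

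Genes that load and supply amino acids rose with them. Of 19 cytosolic aminoacyl-tRNA synthetases, which join amino acids to their tRNAs, 15 rose and none fell (median 1.26), led by Tars (2.61), Iars (2.53), Yars (2.25), Cars (2.2) and Gars (1.99). Of 20 genes of ATF4, the factor of the amino acid response, and its targets, 15 rose and 1 fell (median 1.2), and 11 rose without IGF1 replicate 2. Atf4 was at 11.20, 11.70 and 11.04 in IGF1 uteri, against 8.89, 8.73 and 9.19 in vehicle uteri (2.38 ± 0.37, adjusted p = 8.53e-05). Asns, asparagine synthetase, was at 9.10, 11.10 and 9.06 in IGF1 uteri, against 6.82, 6.83 and 7.07 in vehicle uteri (2.85 ± 0.58, adjusted p = 0.00115, 7.2-fold), and differed by 2.17 without IGF1 replicate 2, still past the threshold. Mthfd2, a mitochondrial folate enzyme, was at 8.27, 9.75 and 8.88 in IGF1 uteri, against 6.12, 5.87 and 5.98 in vehicle uteri. IGF1 replicate 2 was the highest of the IGF1 arrays in each of these genes. The serine synthesis genes Psat1 (1.94) and Phgdh (1.32) and the stress factor Ddit3 (1.72) rose, and Vldlr, a lipoprotein receptor, was the member that fell (-0.78).

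Of 20 amino acid transporters 9 rose and none fell (median 0.34). Without vehicle replicate 1, 7 rose and 2 fell, Slc6a6 (-1.49) and Slc7a7 (-0.91), which carry taurine and basic amino acids, and without IGF1 replicate 2, 7 rose and none fell. Slc7a5, the light chain of the leucine transporter, was at 11.57, 13.34 and 11.64 in IGF1 uteri, against 8.49, 9.17 and 9.21 in vehicle uteri (3.23 ± 0.6, adjusted p = 0.00044, 9.35-fold). Its partner Slc3a2 rose by 1.53, the arginine transporter Slc7a1 by 3 ± 0.43, the cystine transporter Slc7a11 by 1.66 and the glutamine transporter Slc38a2 by 1.43. The composite C/EBP-ATF motif TGATGNAA was in 3% of promoters of genes at least 2-fold higher, 3.48% of those at least 2-fold lower and 4.01% of all, but in 5 of 19 promoters of the ATF4 list (26.3%). The Asns promoter (chr6:7693210-7693459, minus strand), the textbook example of this element, holds it in capitals at -23.
Asns: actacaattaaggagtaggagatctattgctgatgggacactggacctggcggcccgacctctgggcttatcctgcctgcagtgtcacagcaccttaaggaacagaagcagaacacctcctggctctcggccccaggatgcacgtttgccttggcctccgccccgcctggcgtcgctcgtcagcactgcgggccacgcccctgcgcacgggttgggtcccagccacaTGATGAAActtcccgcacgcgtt

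Of 21 genes for purine, pyrimidine, one-carbon and polyamine synthesis 11 rose and none fell (median 0.58). Ctps, which makes CTP, was at 10.25, 10.30 and 10.52 in IGF1 uteri, against 7.29, 7.63 and 7.50 in vehicle uteri (2.88 ± 0.25, adjusted p = 2.07e-07, 7.38-fold). Spermidine synthase, Srm, rose by 2.22, the pyrimidine enzyme Umps by 1.13, the purine enzyme Atic by 1.05 and the polyamine enzyme Odc1 by 0.98. Tyms (-0.06) and Paics (-0.2) did not pass the test.

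Chaperones were among the strongest groups. Of 19 cytosolic heat shock proteins and co-chaperones 15 rose and none fell (median 1.19). Hsph1, a nucleotide exchange factor of HSP70, was at 12.27, 12.43 and 12.23 in IGF1 uteri, against 8.28, 8.51 and 8.31 in vehicle uteri (3.95 ± 0.3, adjusted p = 4.79e-08, 15.4-fold). Stip1, which hands clients from HSP70 to HSP90, rose by 2.7 ± 0.25, and Hspa4 and Hsp90aa1 by 1.77 each. Bag3 rose by 1.49, the stress-inducible Hspa1a was at least 1.9-fold higher, and Hspa8, the constitutive form, rose by 0.31 (adjusted p = 0.0426). The paired heat shock motif GAANNTTC was in 8 of 16 promoters of this list (50%), in 8.44% of all promoters and in 6.9% of those of genes at least 2-fold higher. Of 11 mitochondrial chaperones and subunits of the cytosolic folding machine TRiC 10 rose, among them Hspa9 (1.64), Hspd1 (1.59) and Cct3 (1.48).

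In the endoplasmic reticulum, 14 of 24 chaperones and unfolded protein response genes rose and 1 fell (median 0.79). Hspa5, the luminal HSP70 known as BiP, was at 13.17, 12.92 and 13.36 in IGF1 uteri, against 10.49, 10.96 and 11.08 in vehicle uteri (2.31 ± 0.29, adjusted p = 1.17e-05, 4.95-fold). Dnajb11 (2), Xbp1 (1.71), Hyou1 (1.63) and Calr (1.52) rose as well, Ero1b fell (-0.71), and the sensor Atf6 differed by 0.01. Creb3l1, a membrane-bound factor of secretory and matrix genes, was at 9.60, 9.12 and 9.79 in IGF1 uteri, against 6.68, 6.39 and 6.43 in vehicle uteri (3.01 ± 0.23, adjusted p = 4.79e-08).

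Of 30 proteasome subunits 16 rose and none fell (median 0.76), 11 without vehicle replicate 1 and 12 without IGF1 replicate 2. Psmc5, an ATPase of the regulatory particle, was at 14.11, 13.99 and 13.97 in IGF1 uteri, against 11.68, 12.15 and 12.31 in vehicle uteri (1.97 ± 0.34, adjusted p = 0.000208). Psmd12 was at 13.37, 13.37 and 13.27 in IGF1 uteri, against 12.09, 11.97 and 11.92 in vehicle uteri (1.34 ± 0.26, adjusted p = 0.000709). Of 20 autophagy and lysosome genes 3 rose and 6 fell. The shares of rises and of falls were both above those of all genes. Without vehicle replicate 1, 3 rose and 5 fell, and without IGF1 replicate 2, 3 rose and 4 fell. Mitf (-1.69), a lysosome gene activator, Ulk2 (-0.75), a starting kinase of autophagy, and Map1lc3b (-0.57) were among the falls.

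**Figure D2:**
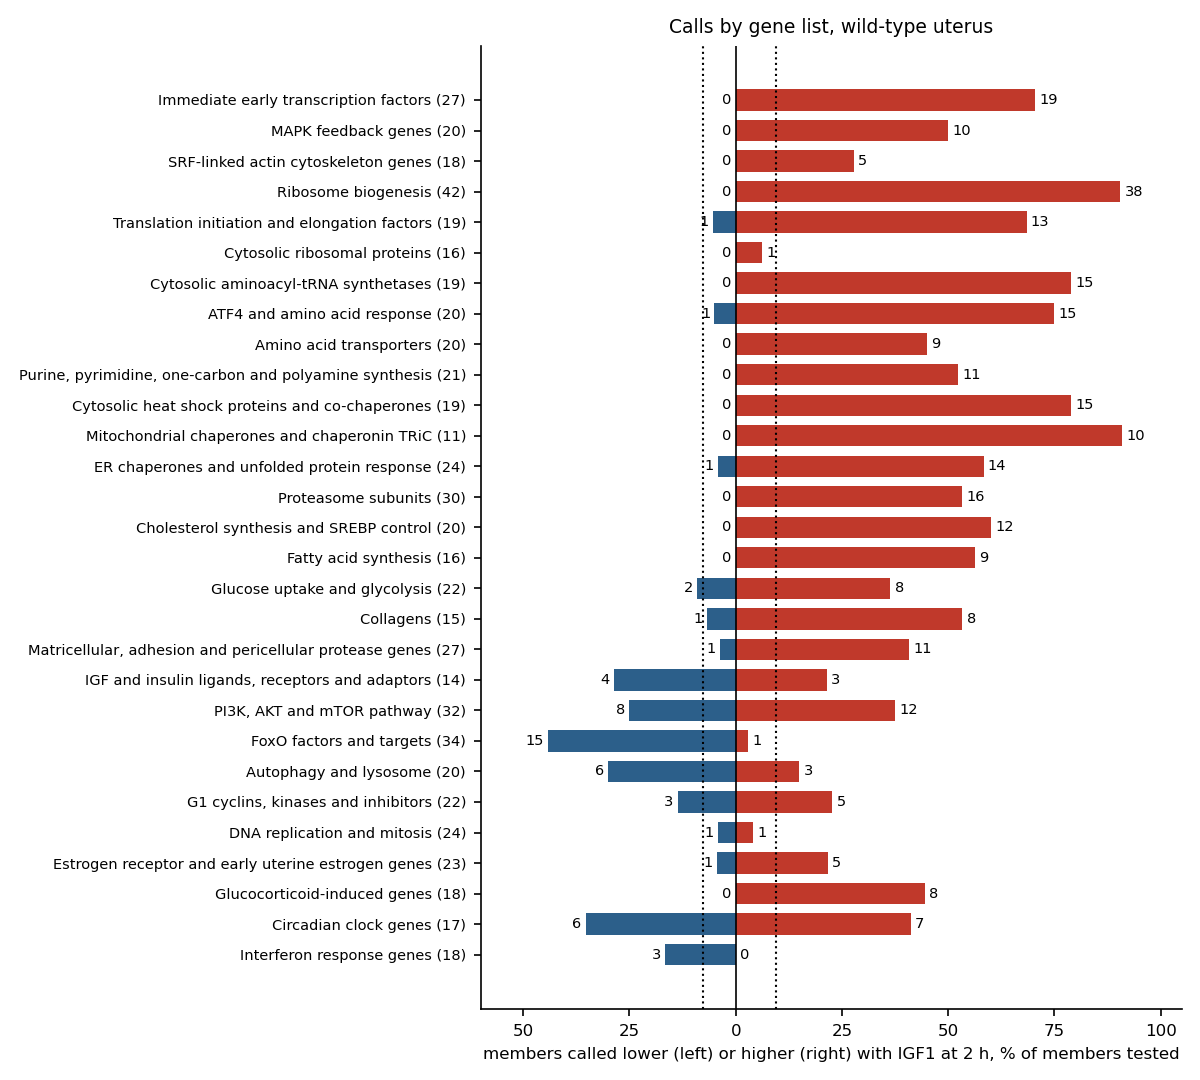
Percent of the members of 29 gene lists that were called higher (right) or lower (left) in WT IGF1 2 h than in WT vehicle, with the counts printed; dotted lines mark the shares over all genes, 9.54% higher and 7.64% lower. Ribosome biogenesis (38 of 42) and mitochondrial chaperones with TRiC (10 of 11) reach farthest to the right, and FoxO genes (15 of 34) farthest to the left.

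Sterol and fatty acid synthesis genes, which mTORC1 and AKT are known to raise through SREBP factors, split by how they behaved across arrays. Of 20 cholesterol synthesis and SREBP genes 12 rose and none fell (median 0.86), 10 without vehicle replicate 1 and 7 without IGF1 replicate 2. Hmgcs1, the enzyme before HMG-CoA reductase, was at 11.39, 11.93 and 11.21 in IGF1 uteri, against 9.22, 9.17 and 9.08 in vehicle uteri (2.35 ± 0.44, adjusted p = 0.000526, 5.1-fold). Cyp51, which trims lanosterol, was at 9.91, 10.45 and 9.82 in IGF1 uteri, against 7.23, 7.58 and 7.61 in vehicle uteri (2.59 ± 0.38, adjusted p = 5.24e-05). Sqle (2.33), Idi1 (2.19), Srebf2 (2.07) and Insig1 (1.96) rose too, Insig1 not without IGF1 replicate 2, and Hsd17b7 was at least 3.11-fold higher. Mvk and Ebp differed by -0.01 each.

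Of 16 fatty acid synthesis genes 9 rose and none fell (median 1.57), but 4 rose without vehicle replicate 1, and 2 rose and 1 fell without IGF1 replicate 2. Fasn, fatty acid synthase, was at 10.86, 16.05 and 10.80 in IGF1 uteri, against 8.08, 9.68 and 9.41 in vehicle uteri (3.51 ± 1.04, adjusted p = 0.0206). Without IGF1 replicate 2 its difference was 1.77 (adjusted p = 0.207), and without vehicle replicate 1 it was 3.02 (adjusted p = 0.0978). Thrsp, a partner of fat synthesis, was at 8.03, 12.42 and 8.52 in IGF1 uteri, against 5.94, 7.07 and 6.38 in vehicle uteri (3.2 ± 0.8, adjusted p = 0.00615) and differed by 1.82 without IGF1 replicate 2 (adjusted p = 0.0679). Scd1, the desaturase, was at 15.81, 19.53 and 16.00 in IGF1 uteri, against 10.62, 15.60 and 15.27 in vehicle uteri, and did not pass the test (adjusted p = 0.188). In all 3 genes IGF1 replicate 2, the array with the high fat-cell markers, was the highest of all, and vehicle replicate 1 was the lowest of the vehicle arrays. The mean of 6 adipocyte markers was 8.67, 11.67 and 7.9 in IGF1 uteri, against 7.2, 8.05 and 8.05 in vehicle uteri, and their part in the fatty acid result was not tested. The elongases Elovl5 (1.78 ± 0.28) and Elovl1 (1.51 ± 0.28) rose with and without either array.

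The sterol regulatory element TCACNCCAC was in 0.9% of promoters of genes at least 2-fold higher, 1.24% of those at least 2-fold lower and 1.47% of all, and in 1 of 16 promoters of the cholesterol list, that of Hmgcs1. It is shown as that match (chr13:119690101-119690350, plus strand), with the element in capitals at -137.
Hmgcs1: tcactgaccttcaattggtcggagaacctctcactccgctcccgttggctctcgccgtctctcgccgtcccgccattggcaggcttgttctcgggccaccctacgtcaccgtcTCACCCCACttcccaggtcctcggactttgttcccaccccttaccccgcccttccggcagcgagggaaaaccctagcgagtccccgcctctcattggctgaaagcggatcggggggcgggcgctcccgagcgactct

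Of the motifs not yet given, the cAMP response element TGACGTCA was in 4.2% of promoters of genes at least 2-fold higher, 2.49% of those at least 2-fold lower and 2.5% of all. The AP-1 site TGANTCA was in 6.3%, 5.47% and 8.55% of the same promoters, in that order. Of 22 glucose uptake and glycolysis genes 8 rose and 2 fell (median 0.45), and 5 rose without IGF1 replicate 2. Hexokinase Hk2 rose by 1.25, Pfkfb3, which makes the activator of glycolysis, by 1.17 and Ldha by 1.08, while Pdk1 (-0.84) and Pfkm (-0.7) fell.

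Genes for signals between cells moved in part. Of 24 angiogenic and vasoactive genes 5 rose and 4 fell (median 0.02), and 3 rose and 1 fell without IGF1 replicate 2. Vegfa, the main endothelial growth factor, was at 11.96, 13 and 12.11 in IGF1 uteri, against 8.87, 9.20 and 9.47 in vehicle uteri (3.17 ± 0.46, adjusted p = 4.25e-05, 9.03-fold), whereas its relatives Vegfc (-0.98) and Vegfd (-1.14) fell. The other rises were Ramp2, an adrenomedullin receptor part (1.41), the VEGF receptors Flt1 (0.74) and Kdr (0.5), and Nos3, endothelial nitric oxide synthase (0.74). Angpt2 and Edn1 also fell (-0.69 each).

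Of 27 matricellular, adhesion and pericellular protease genes 11 rose and 1 fell (median 0.75). Ccn1, a matrix protein that signals through integrins, was at 11.22, 12.22 and 11.90 in IGF1 uteri, against 7.37, 7.89 and 8.11 in vehicle uteri (3.99 ± 0.4, adjusted p = 1.49e-06, 15.9-fold). Thbs1, thrombospondin 1, was at 13.45, 14.10 and 13.55 in IGF1 uteri, against 10.61, 10.95 and 11.20 in vehicle uteri (2.78 ± 0.44, adjusted p = 0.000101). The fibronectin receptor subunit Itga5 rose by 2.93 ± 0.42, Adamts1 by 1.61 and the hyaluronan synthase Has1 by 1.35, and Has2 fell (-0.64). Of 15 collagens 8 rose and 1 fell (median 0.57), with Col15a1 (1.75), Col6a2 (1.57) and Col6a3 (1.53) the largest rises and Col5a2 (-0.95) the fall.

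Other ligand families moved in few members. Of 12 EGF-family genes Hbegf rose (1.15), and of 16 genes of the LIF and IL-6 family Stat3 (0.9) and Il6ra (0.85) rose. Of 23 chemokines and acute inflammation genes 3 rose and 1 fell (2 and 0 without vehicle replicate 1), with the monocyte attractants Ccl2 (2.74 ± 0.62) and Ccl7 (1.83) and the adhesion molecule Icam1 (0.99) as the rises. Of 21 TGF-beta and BMP genes 4 rose and 3 fell: Id1 (1.91) and Skil (1.55) among the rises, and Bmp4 (-1.16), Tgif1 (-1.32) and Tgfb2 (-0.87) as the falls. Of 29 Wnt and hedgehog genes 6 rose and 1 fell, against 3 and 3 without vehicle replicate 1, and Gli1 (1.28) and Lef1 (1.08) were among the rises. Rspo3, which amplifies Wnt signals, was at 12.98, 11.81 and 12.79 in IGF1 uteri, against 14.57, 15.40 and 15.62 in vehicle uteri (-2.67 ± 0.61, adjusted p = 0.00288, 6.37-fold lower).

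Cell cycle genes were called mainly in the G1 list. Of 24 replication and mitosis genes 1 rose, Pcna (0.86), and 1 fell, Bub1b (-1.1), and none passed the test without IGF1 replicate 2. Mki67, a marker of cycling cells, was at 8.64, 6.46 and 9.15 in IGF1 uteri, against 7.99, 7.87 and 7.55 in vehicle uteri (0.28, adjusted p = 0.791), with the IGF1 arrays on both sides of the vehicle range. Of 22 G1 cyclins, kinases and inhibitors 5 rose and 3 fell, and 3 rose and 3 fell without IGF1 replicate 2. Cdkn1a, the kinase inhibitor p21, was at 11.34, 12.31 and 11.51 in IGF1 uteri, against 8.4, 7.83 and 8.45 in vehicle uteri (3.49 ± 0.5, adjusted p = 4.06e-05, 11.3-fold). Rb1, the retinoblastoma protein that holds cells in G1, was at 10.21, 10 and 10.49 in IGF1 uteri, against 12.59, 12.24 and 11.80 in vehicle uteri (-1.98 ± 0.36). Ccnd2 (0.92) and E2f4 (1.06) rose, and Cdk6 fell (-1.28). Of 19 p53 and growth-arrest genes 7 rose and 3 fell.

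Hormone-linked and clock genes also differed between groups taken at different times after injection. Of 18 genes known as glucocorticoid-induced 8 rose and none fell (median 0.82), against 7 and 1 without vehicle replicate 1 and 5 and 1 without IGF1 replicate 2. Fkbp5, an HSP90 co-chaperone and a common readout of the glucocorticoid receptor, was at 7.02, 7.95 and 6.92 in IGF1 uteri, against 5.79, 5.56 and 5.74 in vehicle uteri, and was at least 2.28-fold higher (adjusted p = 5.71e-06). Sgk1, a kinase, rose by 1.55. Of 17 circadian clock genes 7 rose and 6 fell (median -0.33): the activators Clock (1.4), Arntl (1.39) and Npas2 (1.06) rose, and Per3 (-2.43), Dbp (-2.02), Nr1d2 (-1.23) and Tef (-0.88) fell. The labels give no time of day. Of 18 interferon response genes 3 fell and none rose, Ifit2 (-1.81), Ifit3b (-1.59) and Usp18 (-0.96).

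Cell type markers were set beside these groups. The mean of 13 uterine epithelium markers was 9.64, 9.61 and 9.71 in IGF1 uteri, against 8.85, 9.1 and 9 in vehicle uteri, and 6 of them rose, among them Krt19 (1.49 ± 0.4), Cldn3 (1.36 ± 0.35) and Cldn7 (1.1 ± 0.28). The count was 4 without vehicle replicate 1 and 3 without IGF1 replicate 2. Epcam, a defining marker of the same cells, was at 11, 10.55 and 11.30 in IGF1 uteri, against 11.33, 11.56 and 11.12 in vehicle uteri (-0.38, adjusted p = 0.225). The mean of 11 stroma markers was 11.54, 11.07 and 11.59 in IGF1 uteri, against 11.11, 11.64 and 11.81 in vehicle uteri, with no call. The markers of the labelled tissue were thus well above the floor in every array. Among 12 myometrium markers 2 rose and 1 fell (1 and 1 without vehicle replicate 1, 2 and 0 without IGF1 replicate 2), and every other marker list had at most 1 call in a direction. The mean of 8 neutrophil markers was 6.04, 8.15 and 5.87 in IGF1 uteri, against 5.99, 5.53 and 5.81 in vehicle uteri.

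**Figure D3:**
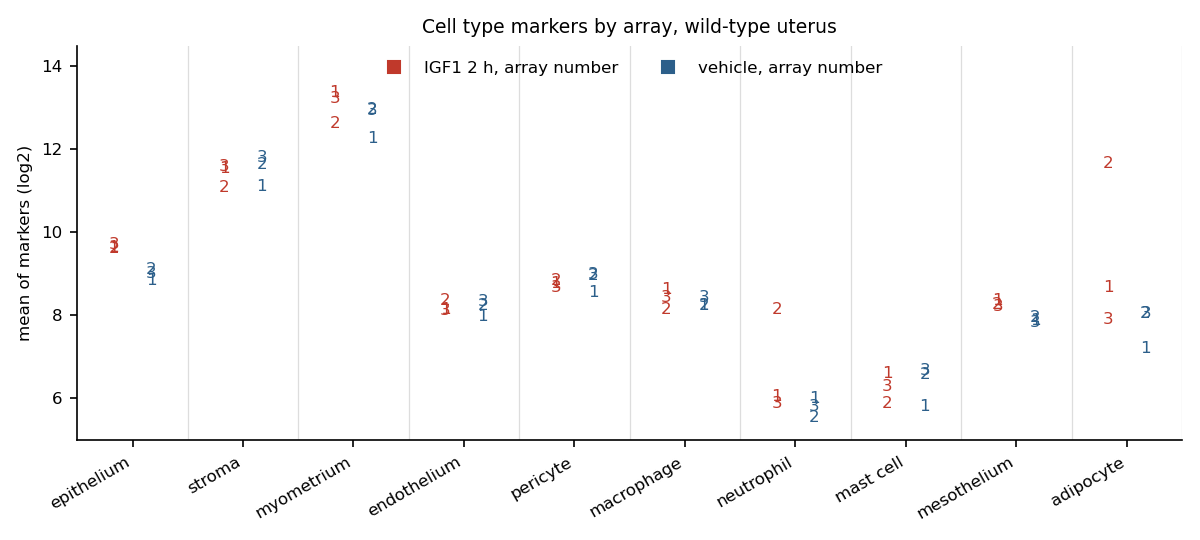
Mean log2 intensity of the markers of 10 cell types on each array, with WT IGF1 2 h (red) left of WT vehicle (blue) and the digit giving the replicate. IGF1 replicate 2 stands above the other arrays in the adipocyte (11.67) and neutrophil (8.15) panels, and the epithelium means of the IGF1 arrays lie above those of the vehicle arrays.

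Some calls of named genes rested on an array that stood apart. Of 198 named genes called in IGF1 against vehicle, 26 did not pass the test without IGF1 replicate 2 (adjusted p between 0.0506 and 0.216), and all kept their direction. Beside Fasn and Thrsp, the rises among them, with the difference then found, were Insig1 (1.45), Slc7a11 (1.33), Zbtb16 (1.11), Odc1 (0.99), Pcna (0.89), Bcl6 (0.8), Hk2 (0.79), Ddit4 (0.67), Ccnd2 (0.6), Flt1 (0.5), Kdr (0.43), Hspa8 (0.31) and Rpl11 (0.25). The falls were Vegfd (-1.03), Bub1b (-0.92), Vldlr (-0.78), Edn1 (-0.74), Usp18 (-0.73), Ero1b (-0.67), Has2 (-0.63), Map1lc3b (-0.56), Angpt2 (-0.55), Eef2k (-0.46) and Mycn (-0.33). Without vehicle replicate 1, 14 did not pass (adjusted p between 0.0502 and 0.182). Beside Fasn, the rises among them, with the difference then found, were Zbtb16 (1.89), Ccl7 (1.5), Slc7a11 (1.29), Odc1 (0.93), Bcl6 (0.91), Ccnd2 (0.82), Tln1 (0.59), Kdr (0.42) and Rpl11 (0.33), and the falls were Edn1 (-0.58), Eef2k (-0.52), Has2 (-0.46) and Mycn (-0.34).

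Against WT uteri taken 2 h after estradiol, which match in time after injection, 835 genes were higher (2.77%) and 844 lower (2.8%) in the WT IGF1 uteri. These and the vehicle comparison share the IGF1 arrays, so their values are given side by side only. Among 23 genes for the estrogen receptor and early uterine estrogen targets, 5 rose and 1 fell against vehicle (4 and 2 without vehicle replicate 1, 1 and 1 without IGF1 replicate 2), and 1 was higher and 17 were lower against E2. Greb1, an estrogen receptor cofactor gene, was at 6.50, 6.29 and 6.64 in IGF1 uteri, against 11.29, 11.20 and 11.34 in E2 uteri (-4.8), and vehicle uteri were at 6.44, 6.45 and 6.44. Klk1, a kallikrein protease, was at 5.94, 6.79 and 5.59 in IGF1 uteri, against 15.12, 14.63 and 14.80 in E2 uteri (-8.74, adjusted p = 1.02e-14), and Pgf, placental growth factor, at 6.06, 6.49 and 6.20 in IGF1 uteri, against 12.22, 11.78 and 12.17 in E2 uteri (-5.81). For these genes IGF1 arrays lay near vehicle arrays and far below every E2 array. Mad2l1, a spindle checkpoint gene, was at 8.69, 8.58 and 8.74 in IGF1 uteri, against 15.60, 15.58 and 15.66 in E2 uteri (-6.94). Igf1 itself was lower in IGF1 than in E2 uteri, where it was at 13.03, 12.53 and 13.14 (-2.71).

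Of the 42 ribosome biogenesis genes 1 was higher and 1 lower in IGF1 than in E2 uteri. Ddx21 was at 12.35, 12.19 and 12.37 and Hsph1 at 12.55, 12.18 and 12.09 in E2 uteri, which overlap the IGF1 values given above (Hsph1 differed by 0.04). Of the immediate early genes 9 of 27 were lower and 1 was higher with IGF1 than with E2 at the same time. Fos (-2.74) was at 9.52, 9.09 and 8.88 in E2 uteri, above all IGF1 arrays, and Ccn1 (-1.58), Jun (-1.53) and Hbegf (-2.13) were lower too. Of the 20 MAP kinase feedback genes 4 were higher and 4 lower. Other lists with many rises over vehicle had few calls against E2. Of 19 translation factors 2 were higher and 1 lower, and of 19 heat shock genes 1 was higher and 2 lower. Of 24 endoplasmic reticulum genes 1 was lower and none higher. No proteasome subunit and no gene of the list of mitochondrial chaperones with TRiC was called.

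Some groups were higher with IGF1 than with E2. All 12 calls among the cholesterol genes were higher in IGF1 uteri, with Hmgcs1 at 9.50, 9.57 and 9.31 in E2 uteri (2.05) and Cyp51 at 8.17, 8.02 and 7.91 (2.03). Likewise 7 of 19 tRNA synthetases and 10 of 20 ATF4 genes were higher, and 3 ATF4 genes were lower. Cd248 was at 7.74, 7.56 and 6.77 in E2 uteri, and the IGF1 uteri were higher by 5.3 (adjusted p = 1.84e-07). Of 16 uterine patterning factors, none of which passed the test against vehicle, 6 were higher with IGF1 than with E2. Hoxa10, a homeobox gene of uterine identity, was at 9.14, 9.25 and 9.68 in IGF1 uteri, against 6.98, 7.12 and 7.19 in E2 uteri (2.26, adjusted p = 1.34e-06), and Nr2f2, a stromal nuclear receptor, was at 11.78, 11.51 and 11.95 in IGF1 uteri, against 8.89, 9.55 and 9.36 in E2 uteri (2.48). Ptch1, the hedgehog receptor and a target of the pathway, was higher by 2.93, though it had not passed the test against vehicle (-0.61, adjusted p = 0.419). Of the 11 uterine stroma markers, which include Hoxa10 and Nr2f2, 6 were higher with IGF1 than with E2 and none lower (median 0.95). Their mean was 11.54, 11.07 and 11.59 in IGF1 uteri, against 10.16, 10.28 and 10.19 in E2 uteri, and their part in the result on patterning factors was not tested.

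The KO comparison shares no array with the WT comparison. Both set uteri taken at 2 h against vehicle uteri taken at 24 h, so both hold the time difference. In KO uteri, 1262 genes (4.19%) were higher and 888 (2.95%) lower 2 h after IGF1 than after vehicle. Of the 2875 WT rises, 1027 rose in KO uteri (35.7% of the WT list, 81.4% of the KO list), none fell, and 96.8% had the same sign. Of the 2303 WT falls, 627 fell in KO uteri (27.2% of the WT list, 70.6% of the KO list), none rose, and 94.3% had the same sign. E2 against vehicle in KO uteri has the same time difference without IGF1. There 73.3% of the WT rises and 74.8% of the WT falls had the same sign. The part of time in the shared changes was not tested. With IGF1, the median change of the WT rises was 0.49 in KO and 0.82 in WT uteri, and that of the WT falls was -0.4 in KO and -0.71 in WT uteri. Without KO IGF1 replicate 3, described next, the KO medians were 0.63 and -0.53. These genes were chosen by their change in WT, which by itself makes the WT medians larger. The medians therefore do not compare the size of the response between genotypes. Across all genes the changes of the genotypes correlated with r = 0.69, a description, since genes are not independent replicates.

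KO IGF1 replicate 3 bore on these numbers. Spry4 was at 12.01, 11.13 and 7.63 in KO IGF1 uteri, against 7.07, 6.49 and 6.65 in KO vehicle uteri. Fbxo32 was at 9.44, 7.55 and 13.31 in KO IGF1 uteri, against 12.92, 13.22 and 13.88 in KO vehicle uteri, and Klhl24 at 8.70, 8.58 and 12.64 in KO IGF1 uteri, against 12.32, 12.95 and 13.02 in KO vehicle uteri. On the third array these genes lay within or near the vehicle range. Other genes were high there: the chemokine Ccl12 was at 10.64, 9.76 and 11.78 in KO IGF1 uteri, against 7.2, 7.07 and 6.44 in KO vehicle uteri. Leaving out KO IGF1 replicate 1 or 2 in place of it left 310 or 898 calls. The overlap with the WT calls was counted only without replicate 3. That array was picked after genes that IGF1 moves were seen near vehicle on it. A larger overlap without it was thus built into the choice, and the same holds for the list counts and changes without it below. Without replicate 3, 2204 genes (7.31%) were higher and 1696 (5.63%) lower, and 1598 of the WT rises rose (55.6%) and 1088 of the WT falls fell (47.2%), with no gene called in the opposite direction. Of the 979 WT rises of at least 2-fold, 578 (59%) rose in KO uteri with all arrays and 745 (76.1%) without it. Of the 570 such falls, 268 (47%) fell with all arrays and 419 (73.5%) without it.

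The genes named by the rule in KO uteri included others. Hpgds, a prostaglandin D synthase of immune cells, was at 8.81, 9.13 and 10.93 in KO IGF1 uteri, against 12.96, 13.46 and 11.93 in KO vehicle uteri (-3.16, adjusted p = 0.000267). In WT it was at 8.72, 8.82 and 8.06 in IGF1 uteri, against 9.77, 9.12 and 9.58 in vehicle uteri (-0.95, adjusted p = 0.139), and with E2 in KO uteri it fell too, to 10.08, 8.73 and 9.53 (-3.34, adjusted p = 0.000606). Ccl12 rose in both genotypes, by 3.82 in KO uteri and by 2.28 in WT uteri, where it was at 8.49, 9.10 and 9.29 in IGF1 uteri, against 6.69, 6.74 and 6.62 in vehicle uteri.

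Several gene lists with many WT calls had calls in KO uteri too. Immediate early genes had 17 of 27 rises, ribosome biogenesis 23 of 42, heat shock 12 of 19, tRNA synthetases 10 of 19 and ATF4 genes 11 of 20, with no falls in any of them, and FoxO genes had 10 falls and 1 rise of 34. Without KO IGF1 replicate 3 the counts were 15 rises for immediate early genes, 32 for ribosome biogenesis, 14 for heat shock, 14 for tRNA synthetases and 17 for ATF4 genes, and 17 falls and no rise for FoxO genes. Fbxo32 differed by -3.24 with all KO arrays and by -4.85 without replicate 3, and Spry4 by 3.52 and 4.83. Other lists had fewer calls: 7 rises and 1 fall of 24 for the endoplasmic reticulum, 3 rises of 30 for the proteasome and 2 of 11 for mitochondrial chaperones with TRiC, against 8 rises and 2 falls, 11 rises and 6 rises without replicate 3. No cholesterol gene passed the test with all KO arrays, and 9 of 20 rose without replicate 3. Hmgcs1 was at 11.36, 10.24 and 8.81 in KO IGF1 uteri, against 9.66, 8.68 and 9.26 in KO vehicle uteri. It differed by 1.6 without replicate 3 (adjusted p = 0.00766). Collagens rose in 1 of 15 in KO uteri with or without that array, against 8 in WT uteri, and the difference between the genotypes was not past the threshold for any of them. The glucocorticoid-induced and clock lists had calls in KO uteri too: 10 rises of 18, and 6 rises and 3 falls of 17. Without replicate 3 they had 5 rises, and 5 rises and 7 falls.

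**Figure D4:**
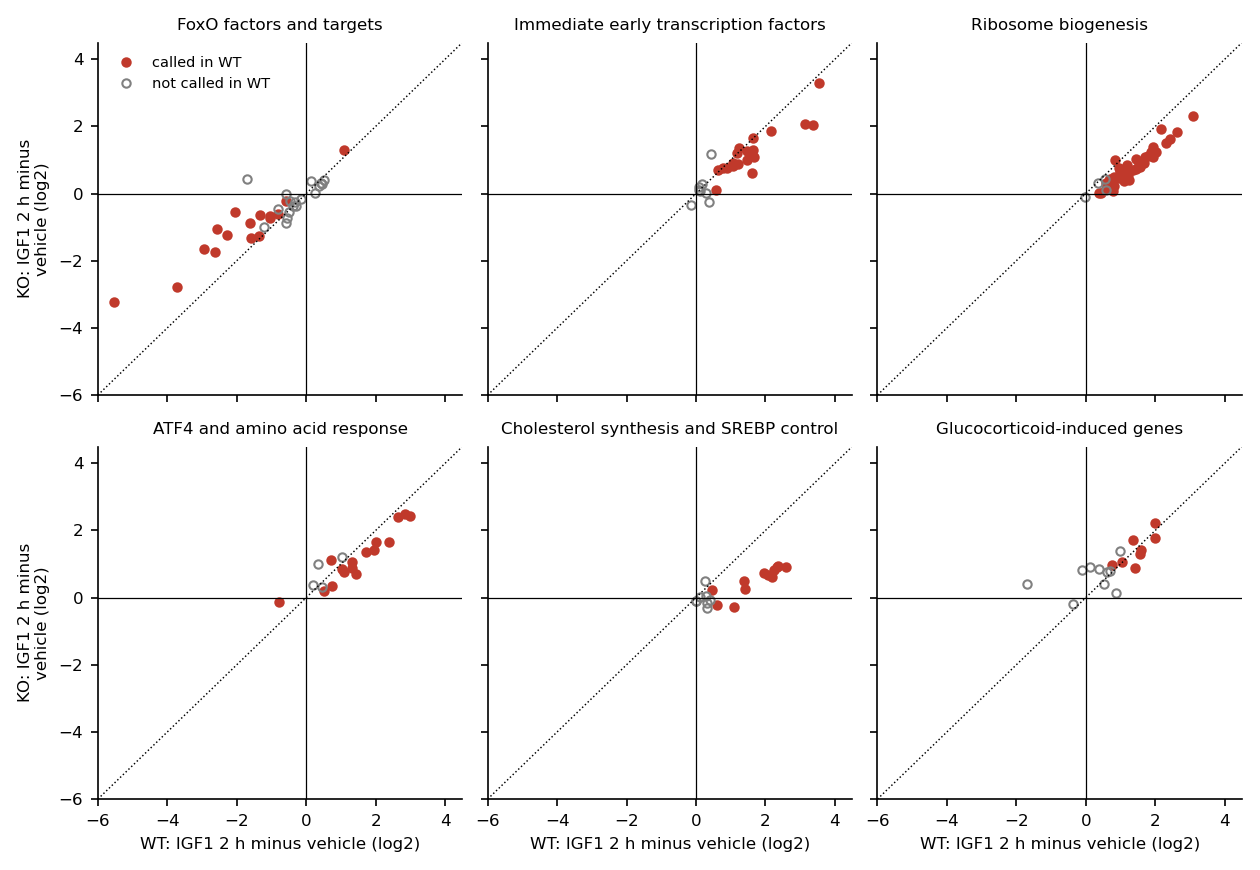
Log2 change 2 h after IGF1 over vehicle in WT uteri (x axis) and KO uteri (y axis, all 3 arrays) for the members of 6 gene lists; filled points were called in WT, and the dotted line marks equal change. FoxO genes lie mainly below 0 on both axes and the other lists mainly above 0, and cholesterol points lie mostly below the dotted line.

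In KO uteri 573 genes (1.9%) were higher and 343 (1.14%) lower 2 h after IGF1 than 2 h after E2, and 462 of the WT rises and 222 of the WT falls were called in the same direction there, with 4 and 1 in the opposite one. Immediate early genes had 11 rises and FoxO genes 11 falls in that comparison, ribosome biogenesis had 20 rises, ATF4 genes 9, heat shock genes 5 and tRNA synthetases 3. Endoplasmic reticulum genes had 2 falls and no rise, and no gene of the proteasome, mitochondrial chaperone and cholesterol lists was called. The glucocorticoid-induced list had 1 rise, and the clock list had 2 rises and 1 fall. Since both groups had an injection 2 h before, this comparison does not hold the time difference. Its count of calls was 34, 41 and 2922 without KO IGF1 replicates 1, 2 and 3 in turn. E2 against vehicle in KO uteri, which does hold it, gave 78 higher genes (0.259%) and 32 lower (0.106%), and 28 to 332 calls without 1 array. Of the 78, 38 were WT rises with IGF1 (48.7%), and of the 32, 14 were WT falls (43.8%). Across 17935 genes above the floor in WT, its changes correlated with the WT IGF1 changes at r = 0.37. For IGF1 against vehicle in KO uteri, which also holds the time difference, r was 0.71 on these genes. For IGF1 against E2 in KO uteri, which does not hold it, r was 0.46. The part of time in the WT changes was not tested. The 78 included 5 of the 18 glucocorticoid-induced genes. Zbtb16, which glucocorticoids induce, was at 11.53, 10.51 and 12.52 in KO E2 uteri, against 7.64, 8.22 and 7.77 in KO vehicle uteri (3.64). It was at 9.53, 8.91 and 11.86 in KO IGF1 uteri, and in WT it was at 8.36, 10.92 and 8.30 in IGF1 uteri, against 7.05, 7.12 and 7.49 in vehicle uteri. Fkbp5 likewise was at 7.32, 7.08 and 7.48 in KO E2 uteri, against 6.04, 6.12 and 5.99 in KO vehicle uteri (1.24). Of the 27 immediate early genes none passed the test in KO uteri with E2, and of the 17 clock genes 3 rose.

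A test of the difference between the genotypes called 2 genes higher and 2 lower in KO minus WT (0.00664% each), with 2071 genes at an unadjusted p under 0.05. Creb3l1 was the strongest: it was at 7.85, 7.38 and 7.22 in KO IGF1 uteri, against 6.57, 6.23 and 6.59 in KO vehicle uteri, a change of 1.02 in KO and 3.01 in WT uteri (difference -1.99 ± 0.33, adjusted p = 0.0356). Gna14, a G protein subunit, changed by -0.25 in KO and by 1.23 in WT uteri (difference -1.49 ± 0.24, adjusted p = 0.0356). The genes with the higher difference were Trim45, a ubiquitin ligase, which changed by -0.36 in KO and by -1.83 in WT uteri, and Slc7a15, an amino acid transporter. Trim45 was at 6.57, 6.33 and 6.57 in KO vehicle uteri, near the floors of those arrays (6.23, 5.98 and 6.05). A fall of the WT size would have gone below background in KO uteri and could not have been measured there. Slc7a15 was at the floor in KO IGF1, KO vehicle and WT IGF1 uteri and at 6.59, 6.08 and 6.48 in WT vehicle uteri, at least 1.38-fold lower with IGF1 in WT, so the size of its difference between genotypes was not measured. None of these 4 genes is a member of the lists above, so no list member was called for a difference between the genotypes.

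At 24 h after the start of repeated IGF1, 2394 genes were higher (7.94%) and 1981 lower (6.57%) than at 2 h. Values are again side by side, since both comparisons use the 2 h arrays. Immediate early genes were lower at 24 h in 19 of 27 cases, ribosome biogenesis genes in 30 of 42 and MAP kinase feedback genes in 10 of 20, with 1 higher in the last list. FoxO genes were higher in 15 of 34 cases and lower in 1. Thbs1 was at 9.23, 9.34 and 9.23 at 24 h, against 13.45, 14.10 and 13.55 at 2 h (-4.43, adjusted p = 1.26e-06), below the vehicle arrays given above. Fbxo32 was at 13.56, 14.26 and 13.71 at 24 h, against 9.58, 8.29 and 10 at 2 h (4.56, adjusted p = 0.000372), while Cd248 was at 9.92, 9.59 and 10.39 at 24 h. Replication and mitosis genes, with few calls at 2 h, were higher in 17 of 24 cases: Mki67 was at 10.39, 10.65 and 10.51 at 24 h (2.44 over 2 h) and Top2a, a topoisomerase of dividing cells, at 10.51, 10.63 and 10.99 (2.35 over 2 h). Igfbp5, a binding protein of IGF1, was at 15.59, 14.79 and 15.19 at 24 h, against 12.46, 11.69 and 12.38 at 2 h (3.01), and vehicle uteri were at 10.92, 11.19 and 11.11.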

How the data were processed

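The table analysed holds log2 intensities deposited by the authors for 72688 probe sets on 30 Affymetrix arrays, per the labels made from 300 ng of total RNA with the WT Plus kit. The normalization is not given in the sources used here. Values ran between 1.96 and 19.93. Probe sets were named from GEO's platform annotation and RefSeq (GRCm38.p6): 30604 had a single gene symbol, 2146 several and 39938 none, and the probe set of highest mean stood for each of the 30142 genes tested. No column lacked a mapped sample.

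A group-means model over all 30 arrays was fitted with limma (3.58.1, R 4.3.3; residual df 20), with Benjamini-Hochberg adjustment and a threshold of 0.05. Errors are its standard errors. Figures and counts used Python 3.11.15, pandas 2.3.3 and matplotlib 3.10.9. The model was also run on simulated data with independent normal noise of equal spread on all arrays. The arrays here differ in spread (array weight 0.166 for WT vehicle replicate 1 and 3.66 for replicate 3), which that run does not test. The floor of an array was the 95th percentile of 1084 olfactory receptor genes. With 3 arrays a group, their number limits the precision. A fold called "at least" sets the brighter group's mean against the floor.

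The rule for named genes took, for IGF1 against vehicle in WT, the 15 largest rises and falls past the threshold, at least 2-fold, not overlapping and above the floor in the brighter group, and the 5 largest each way in other comparisons, leaving out predicted genes, small RNAs, olfactory and vomeronasal receptors and immune receptor segments. Any member of the 58 gene lists (952 of 1055 entries matched) could be named too. The members, lists and motifs were chosen with earlier results of these data known. Creb3l1, Gna14, Slc7a15 and Trim45 are named as the genes called between genotypes. Alternatives were centring, quantile normalization, removing dim genes, averaging probe sets, other samples in the fit, another prior, array weights, a replicate block and leaving out each array.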

Additional observations from a re-analysis of the deposited data

Results flagged for a closer look

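The change 2 h after IGF1 differed between genotypes in 4 genes by the test of the difference itself (KO change minus WT change, limma). Creb3l1 differed by -1.99 ± 0.33 and was past the threshold in 7 of 16 alternatives, with adjusted p between 0.01 and 0.146. Gna14 differed by -1.49 ± 0.24 and was past it in 8 of 16 (0.0117 to 0.115): it was at 8, 8.38 and 8.08 in KO IGF1 uteri, against 8.32, 8.53 and 8.36 in KO vehicle uteri, and at 9.72, 9.44 and 9.73 in WT IGF1 uteri, against 8.59, 8.21 and 8.39 in WT vehicle uteri. Slc7a15 was at the floor in all groups but WT vehicle, where it was at 6.59, 6.08 and 6.48. The fitted difference of 1.17 (past the threshold in 5 of 16 alternatives) therefore rests on values not above background in 3 of the 4 groups and is no measured size. Trim45 differed by 1.47 ± 0.25 and was past it in 5 of 16 (0.0312 to 0.214): it was at 5.92, 5.99 and 6.46 in KO IGF1 uteri, against 6.57, 6.33 and 6.57 in KO vehicle uteri, and at 6.65, 5.8 and 6.71 in WT IGF1 uteri, against 8.09, 8.18 and 8.38 in WT vehicle uteri. The KO vehicle values lay near the floors of their arrays (6.23, 5.98 and 6.05), so a fall of the WT size could not have been measured in KO uteri.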

How the results depend on the processing

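For IGF1 2 h against vehicle in WT, quantile normalization (5067 calls), removing dim genes (5451), averaging probe sets (5167) and a trended prior (5072) left the count of 5178 within 1.5 times. It was 3338 (1332 lower) with only the groups compared in the fit, 8595 (4456 higher, 4139 lower) with array weights and 1549 at 2-fold or more. Centring the arrays left 1479 lower calls, so that 70.8% of calls were higher, against 55.5% as deposited, and moved the median of all genes to 0.03. Leaving out 1 array gave 3748 (WT IGF1 replicate 2) to 5126 calls, 2221 to 2664 higher and 1527 to 2462 lower, none of them called in the opposite direction. Of the 952 matched list entries, 401 were called, and 324 to 361 without WT IGF1 replicate 2 or vehicle replicate 1. A gene in several lists counts once in each of them. The shares over all genes were 9.54% higher and 7.64% lower. Leaving out WT IGF1 replicate 2 for the lists was chosen after seeing the data. So was leaving out KO IGF1 replicate 3, with 325 list entries called in KO, against 226 with all arrays. Of 198 called genes named in the text, 172 to 189 stayed called without 1 array, 177 with only the groups compared and 189 to 198 otherwise, and none turned.

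In KO uteri the counts varied widely: IGF1 against vehicle gave 310 to 3900 calls without 1 array (211 to 2204 higher, 99 to 1696 lower) and 586 lower when centred. IGF1 against E2 in KO gave 34 to 2922 (28 to 1606 higher, 6 to 1316 lower) and 228 lower when centred. E2 against vehicle in KO gave 28 to 332 (21 to 250 higher, 2 to 82 lower), 18 lower when centred and 49 lower with weights. The difference between genotypes gave 0 to 8 calls without 1 array (0 to 3 higher, 0 to 6 lower), 7 (4 higher) without dim genes, 8 (4 higher and 4 lower) with weights and 1 higher when centred. IGF1 against E2 in WT gave 1178 to 1340 (533 to 666 higher, 636 to 714 lower), and 3893 (2148 and 1745) with weights. IGF1 24 h against 2 h gave 3040 to 3716 (1529 to 2050 higher, 1364 to 1666 lower), and 6904 (3797 and 3107) with weights. With all calls in place of those at least 2-fold, the FoxO site was in 5.33% of promoters of falls and the E-box in 13.6% of those of rises. The causes were not tested. For IGF1 against vehicle in WT, the replicate numbers did not pair the samples (correlations of deviations -0.045, -0.144 and 0.034). The replicate block gave 5141 calls there, 2793 higher and 2210 lower in both fits, with 1 higher call for the difference between genotypes. For IGF1 against E2 at 2 h the correlations were 0.084, 0.21 and 0.014 in WT uteri and 0.235, -0.102 and 0.139 in KO uteri. The block gave 1658 calls in WT and 860 in KO uteri, against 1679 and 916 without it. The number of arrays and the floor limit dim genes.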
